A study of Mus musculus with 12 samples.

Results

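Genes of the myelin sheath and of the glial cells that make it were examined in the pituitary glands of 12 female mice. The 8 genes are Mbp, Mag, Mog, Mobp, Cnp, Pmp22, Sox10 and Olig1, and they were chosen by name: every non-control probe whose gene name in the scanner files was one of these symbols was taken. This gave 13 of the 39429 probes on the array, and all 8 genes were among the 19086 genes with a probe bright enough to analyse. No further probe was added by its listed accessions. RNA was read on Agilent 2-colour arrays. All animals were C57BL/6J females aged 2 months, and no transgene or other allele is named for any of them. The 4 control animals ate a normal diet, 4 animals ate a vitamin D-deficient diet during early life, and 4 ate that diet during the peripubertal stage. The labels call the animals of a group biological replicates, and the whole gland was minced before extraction.

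Myelin is the layered membrane that insulates axons. Oligodendrocytes make it in the brain and spinal cord, and Schwann cells make it in peripheral nerve, with an overlapping but not identical set of proteins. The posterior lobe of the pituitary consists of axon endings of hypothalamic neurons among glial cells called pituicytes, whereas the anterior lobe consists of hormone cells. In whole-gland RNA, fewer cells of a type and less RNA per cell cannot be told apart.

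Each of the 6 arrays carried 2 animals of 1 group, the odd-numbered animal in the dye Cy3 and the even-numbered one in Cy5. Both control arrays lay on 1 slide and the other 4 arrays on a second, which means that a difference from control cannot be told apart from one of slide, while both deficient groups shared a slide. Between 50.6% and 67.2% of spots were well above background in a channel. The scanner software marked 1.68% to 1.90% of control spots as outliers, against 6.54% to 7.34% in early life and 3.85% to 5.08% in peripubertal channels. The hormone genes Gh, Prl and Pomc had normalized log2 intensities of 17.53 to 18.75, 16.89 to 18.24 and 16.47 to 18.46, those of Gh in the 10 animals that had a value. The files disagree on the names of the deficient groups. Up to a constant per column, all 8 of their columns in the deposited value table equal channels scanned under the other deficient group's name. Early life 4 of the scanner files is thus peripubertal 2 of that table. Group names below follow the scanner files, and the files do not settle which naming is right.

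None of the 8 genes passed the test between diet groups, and the largest differences lay between single animals. Early life animal 4 had the highest dye-centred level of Mag, Cnp, Pmp22 and Mobp, that is 4 of the 7 genes with a value in every animal (57.1%). It was the highest animal for 9.81% of all 14380 such genes, early life 1 for 18.8% and early life 2 for 13.5%. The dye-centred level is the log2 intensity less the mean of the 6 animals read in the same dye. Control animal 1 had the highest Sox10 level. The members differed widely in how much they varied: the log2 range over the 12 animals was 2.66 for Pmp22, wider than for 97.4% of genes, and 0.38 for Mobp, wider than for 4.17% of genes.

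The Mbp gene is named for the basic protein that holds the inner faces of compact myelin together. It was read by 3 probes that did not vary alike. The brightest, A_52_P604195 at chr18:82727929-82727988 (mouse build mm9, as are all probe positions), was well above background in all 12 channels and stands for the gene. It measured 11.30, 11.96, 11.60 and 11.59 on the normalized log2 scale in control animals 1 to 4, 11.78 and 12.06 in early life animals 1 and 2, and 11.57, 11.94, 11.46 and 11.76 in peripubertal animals 1 to 4. The values of early life animals 3 and 4 were lost to an outlier mark on their array, and with the mark ignored they were 11.89 and 11.94. The groups overlapped, and the fitted dye difference, 0.32 higher in Cy5, was as large as any difference between groups for this probe.

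The second Mbp probe, A_52_P329451 at chr18:82742266-82744570, measured 8.74 in early life animal 4 and 7.40 to 8.11 in the other 11 animals. The third, A_55_P1992160 at chr18:82691469-82691528, measured 7.34 in early life animal 4 and lay between 7.24 and 7.89 over all 12. The RefSeq transcripts that the files list for the brightest probe and for the second do not overlap. Whether the brightest probe reads the message of the myelin protein was not tested. Only the second probe set early life animal 4 apart. These probes were well above background in 10 and 9 of the 12 channels.

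Mobp, another basic protein of central myelin, was dim. Its probe A_51_P291224 at chr9:120077006-120077065 was well above background in 7 of 12 channels and measured 7.13, 7.22, 7.37 and 7.40 in control animals, 7.24, 7.37, 7.19 and 7.49 in early life animals and 7.10, 7.26, 7.33 and 7.21 in peripubertal animals. The groups overlapped almost wholly. The probe at chr9:120085150-120085209 passed background in 2 channels, 1 of them that of early life animal 4 with 7.68, and the probe at chr9:120078400-120078459 in 0, so neither was kept.

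Mag is an adhesion glycoprotein of the myelin membrane next to the axon. Its probe A_55_P2062757 at chr7:31684202-31684261 measured 8.47, 8.05, 8.56 and 7.94 in control animals 1 to 4, 8.81, 8.84, 7.97 and 9.63 in early life animals and 8.09, 7.91, 8.25 and 8.03 in peripubertal animals. Early life animals 1, 2 and 4 lay above all 8 animals of the other groups, while early life animal 3 lay below all but 2 of them. Mog is a glycoprotein on the outer surface of central myelin. Its probe A_66_P123582 at chr17:37148277-37148336 measured 8.82, 8.91, 8.94 and 8.83 in control, 9.08, 9.20, 8.73 and 9.10 in early life and 8.56, 8.64, 8.93 and 8.64 in peripubertal animals. The same 3 early life animals lay above all others, and early life animal 3 again lay within the peripubertal range.

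Cnp is a cyclic nucleotide phosphodiesterase of the uncompacted parts of the sheath. Its probe A_51_P232901 at chr11:100442617-100442676 measured 9.78, 8.81, 9.11 and 9.06 in control, 9.99, 9.19, 8.99 and 10.04 in early life and 9.18, 9.09, 9.30 and 9.01 in peripubertal animals. Control animal 1 and early life animals 1 and 4 stood above the other 9, so that the high values were not those of 1 diet.

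**Figure D1:**
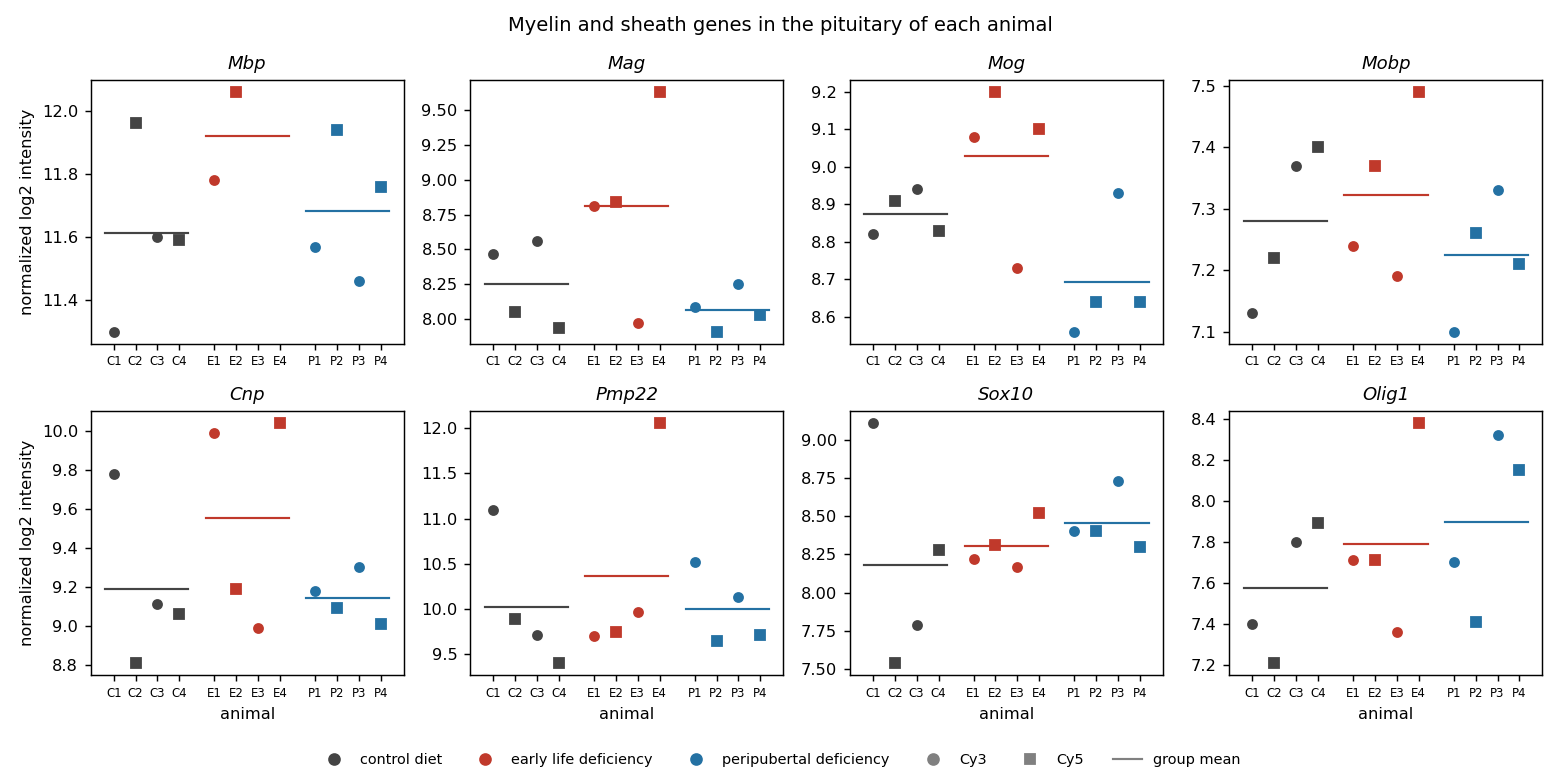
Normalized log2 intensity of the probe that stands for each of the 8 genes (y axis, a separate scale for each gene) in each animal (x axis; C control, E early life, P peripubertal), with dye shown by symbol and the group mean by a line. Early life animal 4 is highest for Pmp22 at 12.06 and for Mag at 9.63, and Mbp has no value in early life animals 3 and 4.

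Upstream sequence is shown for the 4 central myelin genes Mag, Mog, Cnp and Mobp, which include the pairs that moved most closely together. Sox10 belongs to a family of factors whose textbook core motif is ACAAAG or ACAATG, and these letters were searched on both strands in the 250 bases before each start. Of 32851 RefSeq starts of build GRCm38.p6, 16.5% held ACAAAG and 10.7% held ACAATG, and the motifs do not overlap in the sequences below. Promoters of 5 of the 8 genes were matched in the RefSeq table. The capitals mark ACAAAG or its reverse complement, which is the only one of the motifs present.
Mag, chr7:30914864-30915113, minus strand: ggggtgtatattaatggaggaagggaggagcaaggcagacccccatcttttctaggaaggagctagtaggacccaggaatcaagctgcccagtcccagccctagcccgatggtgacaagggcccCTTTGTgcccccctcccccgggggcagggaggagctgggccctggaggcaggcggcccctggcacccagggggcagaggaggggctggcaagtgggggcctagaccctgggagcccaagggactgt
Mog, chr17:37023399-37023648, minus strand: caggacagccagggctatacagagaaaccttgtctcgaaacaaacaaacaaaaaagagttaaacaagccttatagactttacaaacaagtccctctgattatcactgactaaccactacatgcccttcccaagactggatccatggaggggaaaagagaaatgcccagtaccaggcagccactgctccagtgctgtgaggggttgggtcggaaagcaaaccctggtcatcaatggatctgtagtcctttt
Cnp, chr11:100574689-100574938, plus strand: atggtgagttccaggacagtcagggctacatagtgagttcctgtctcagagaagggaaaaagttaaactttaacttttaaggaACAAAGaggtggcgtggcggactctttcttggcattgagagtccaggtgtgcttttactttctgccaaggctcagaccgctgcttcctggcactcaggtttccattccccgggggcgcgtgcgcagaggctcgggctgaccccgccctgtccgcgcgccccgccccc
Mobp, chr9:120149492-120149741, plus strand: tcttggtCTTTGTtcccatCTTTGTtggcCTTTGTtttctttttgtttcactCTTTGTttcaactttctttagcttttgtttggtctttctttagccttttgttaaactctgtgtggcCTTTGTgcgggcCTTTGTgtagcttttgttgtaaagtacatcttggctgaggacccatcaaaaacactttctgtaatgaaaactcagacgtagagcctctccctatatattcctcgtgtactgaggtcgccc
Mobp held 6 matches, the highest count of any start, and 4 or more were found in 0.0213% of starts. Cnp and the first Mag start, which is the one shown, held 1 match each. The second listed Mag start held that same Mag match, and the third held 0. Mog and all 4 listed Pmp22 starts held 0. A match describes letters only and not binding, and whether it bears on the levels was not tested.

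Pmp22, a membrane protein of compact peripheral myelin, varied most. Its probe A_55_P2040170 at chr11:62972989-62973048 measured 11.09, 9.89, 9.71 and 9.40 in control animals 1 to 4, 9.70, 9.74, 9.97 and 12.06 in early life animals and 10.52, 9.64, 10.13 and 9.71 in peripubertal animals. A single animal was high in each group: control 1, early life 4 and, less so, peripubertal 1. The other Pmp22 probe, A_55_P2040168 at chr11:62971862-62971921, was also highest in early life 4 at 10.39 and control 1 at 10.27, but peripubertal 1 measured 9.51, near the lowest value of 9.47.

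Sox10, a transcription factor needed by oligodendrocytes and Schwann cells, was read by A_55_P2094729 at chr15:78985518-78985577. It measured 9.11, 7.54, 7.79 and 8.28 in control, 8.22, 8.31, 8.17 and 8.52 in early life and 8.40, 8.40, 8.73 and 8.30 in peripubertal animals. The control group spanned both extremes, and both deficient groups lay inside its range. Olig1, a factor of the oligodendrocyte lineage, was read by A_52_P603038 at chr16:91271799-91271858. It measured 7.40, 7.21, 7.80 and 7.89 in control, 7.71, 7.71, 7.36 and 8.38 in early life and 7.70, 7.41, 8.32 and 8.15 in peripubertal animals. Here early life 4 and peripubertal 3 and 4 were the highest, and early life 3 was not well above background.

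The comparison of diets asked whether either window of deficiency changed these transcripts. Against control, 0 of 8 genes passed in early life animals and 0 of 8 in peripubertal animals (limma, Benjamini-Hochberg adjusted over all genes, threshold 0.05). Of all genes tested, 0.0977% passed in the first comparison and 0.0213% in the second. Between early life and peripubertal animals, which shared a slide, 0 of 8 passed, against 0.433% of all genes. At an unadjusted p under 0.05 the counts were 0, 0 and 1 of 8, where all genes gave 17.9%, 5.31% and 20.5%. In early life against control all 8 estimates were positive with a median log2 difference of 0.26, where the median of all genes was 0.04. In peripubertal against control 3 were positive and 5 negative with a median of -0.03 (all genes 0.02). In early life against peripubertal 6 were positive and 2 negative with a median of 0.29 (all genes 0.03). Of all genes 55.1%, 55.1% and 53.4% had positive estimates in the same order of comparisons. Both comparisons with control share the control animals. Quantile scaling moved the median of all genes to 0.31, 0.13 and 0.19, and those of the members to 0.55, 0.12 and 0.47. With it Cnp and Pmp22 became positive in peripubertal against control and Olig1 in early life against peripubertal, and with median centring Mog, Cnp and Pmp22 became positive in the former.

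Mag had the largest estimates in the comparisons of early life with control and with peripubertal animals. Its mean was 8.81 ± 0.68 (SD, n = 4) in early life, 8.25 ± 0.31 (n = 4) in control and 8.07 ± 0.14 (n = 4) in peripubertal animals, and no neighbours in this order differed beyond their spread. The log2 difference of early life from peripubertal was 0.74 (SE 0.39, limma adjusted p = 0.296), and from control 0.56 (SE 0.39, adjusted p = 0.46). These values depended on the array of early life animals 3 and 4, which held both the lowest and the highest Mag value of the group. Without early life 4 the differences shrank to 0.37 (SE 0.26, adjusted p = 0.48) and 0.19 (SE 0.26, adjusted p = 0.759). Without early life 3 they were 1.11 (SE 0.24, adjusted p = 0.0334) and 0.93 (SE 0.24, adjusted p = 0.0645). Without both animals their sizes stayed near those of all 12 animals, at 0.76 and 0.57, while the SE fell to 0.16 and both passed (limma adjusted p = 0.018 and 0.0458). Leaving out that array also raised the count over all genes from 79 to 2496 and from 18 to 2169.

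Mog had the 1 unadjusted p under 0.05. Its mean was 9.03 ± 0.21 (n = 4) in early life, 8.87 ± 0.06 (n = 4) in control and 8.69 ± 0.16 (n = 4) in peripubertal animals. The difference of early life from peripubertal was 0.33 (SE 0.15, unadjusted p = 0.0473, limma adjusted p = 0.239). With quantile scaling, under which 3509 genes passed for early life against control and 97.3% of them were higher, Mog passed in that comparison at 0.48 (SE 0.15, adjusted p = 0.0494).

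For the other genes every difference was within 2 SE. Mbp, by its bright probe, averaged 11.92 ± 0.20 (n = 2) in early life, 11.68 ± 0.21 (n = 4) in peripubertal and 11.61 ± 0.27 (n = 4) in control animals. Its difference of early life from control was 0.31 (SE 0.19, limma adjusted p = 0.408) in a fit without early life animals 3 and 4. Cnp averaged 9.55 ± 0.54 in early life animals, followed by 9.19 ± 0.41 in control and 9.15 ± 0.12 in peripubertal animals (n = 4 each). Pmp22 averaged 10.37 ± 1.14 in early life and 10.02 ± 0.74 in control, with the peripubertal mean just under that of control (SD 0.41), and without early life 4 its difference from control turned from 0.35 (SE 0.63) to -0.31 (SE 0.33). Mobp averaged 7.32 ± 0.13, 7.28 ± 0.13 and 7.23 ± 0.10 in the order of Cnp. The order was another for both transcription factors, with peripubertal animals first: Sox10 averaged 8.46 ± 0.19, against 8.30 ± 0.15 in early life and 8.18 ± 0.70 in control, and Olig1 7.90 ± 0.42, against 7.79 ± 0.43 and 7.57 ± 0.32. Under the value table's own group names the signs of all 8 differences of early life from peripubertal turned.

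**Figure D2:**
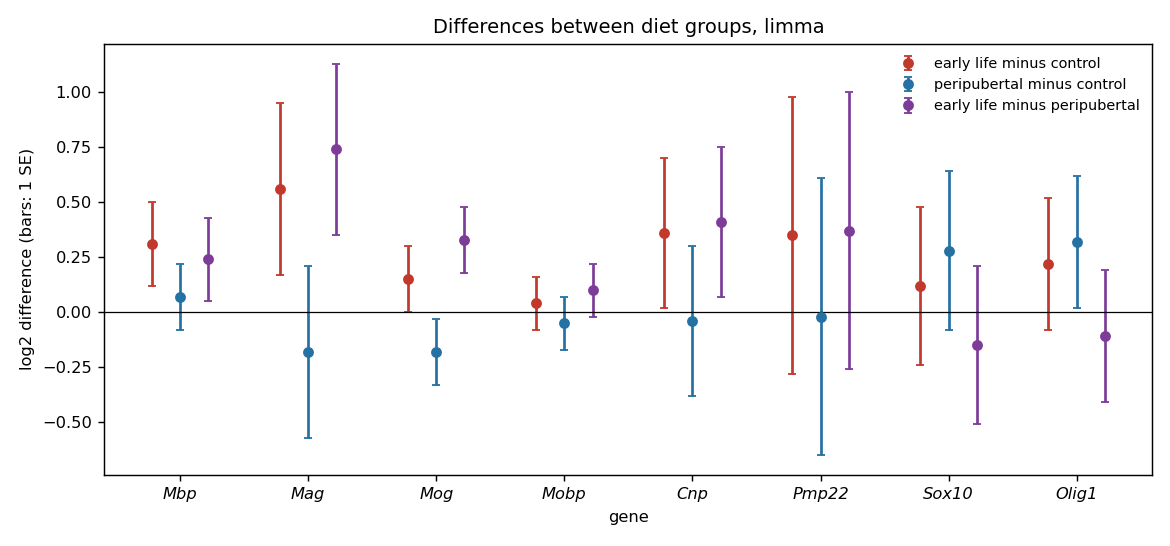
Log2 difference between diet groups for each of the 8 genes (y axis; points are limma estimates, bars 1 SE) in the 3 comparisons. All 8 estimates of early life minus control lie above 0, with the largest, 0.56, for Mag, and none of the 24 differences passed the adjusted threshold.

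Whether the genes moved together in single animals was read from Pearson's r over animals of dye-centred levels. Of 28 pairs, 23 were positive, with a median r of 0.36, a lowest of -0.54 (the bright Mbp probe with Sox10, 10 animals) and a highest of 0.82 (Mag with Cnp, 12 animals). Without early life 4, 17 of the 28 were positive with a median r of 0.08. Without the array of early life 3 and 4, 15 were positive with a median r of 0.03. The median thus depended largely on early life 4. With all animals, two-sided permutation tests with 100000 resamples put 7 pairs at an unadjusted p under 0.05. After adjustment over the 28 relations 2 pairs passed. Both included Mag, and among 14379 genes Cnp ranked 200th and Mog 421st by r with Mag. The permutations shuffled animals freely, so their p-values do not allow for animals sharing an array or a group. The share passing among all pairs of genes was not computed.

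Mag and Mog correlated at r = 0.76 (Spearman rho 0.81, permutation p = 0.00238, adjusted p = 0.0333; for rho p = 0.00226, adjusted p = 0.0633). Without early life 1 and 4, the animals farthest from the median of Mag, r was 0.78, and without control 1, early life 4 and peripubertal 1 together it was 0.88. Among the 8 animals of the slide shared by both deficient groups r was 0.82 (exact permutation p = 0.0123, adjusted p = 0.139), and the 4 animals on the control slide are too few for a value. With group means removed as well r was 0.62 (permutation p = 0.0343, adjusted p = 0.107). For differences within arrays, over the 6 arrays, r was 0.74 (exact permutation p = 0.118, adjusted p = 0.318). Without the array that held early life 4 this fell to 0.30, so the within-array value depended on that array. The pair stayed positive in each of these. Within 1 slide, with group means removed or within arrays it did not pass the adjusted threshold.

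Mag and Cnp correlated at r = 0.82 (rho 0.61, permutation p = 0.00236, adjusted p = 0.0333; for rho p = 0.0396, adjusted p = 0.277). Without early life 1 and 4 r was 0.45, so this relation rests on those animals. Within the slide of both deficient groups it was 0.89 (exact permutation p = 0.00193, adjusted p = 0.054). Mag with Pmp22 and Cnp with Pmp22 both had r = 0.65 (adjusted p = 0.154 each by permutation). Without early life 4 these fell to -0.10 and 0.14. The bright Mbp probe, over the 10 animals with a value, had r from -0.54 to 0.48 with the other members, the highest with Mag. The second Mbp probe, over all 12 animals, had r = 0.81 with Mag (permutation p = 0.00405, adjusted p = 0.0378), and 0.55 without control 1 and early life 4.

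**Figure D3:**
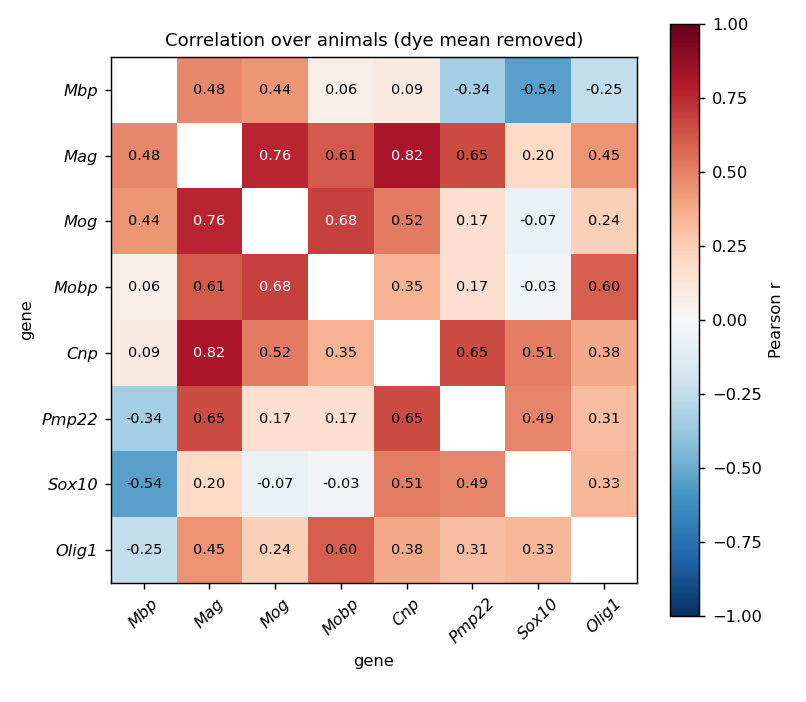
Pearson's r between each pair of the 8 genes over animals (10 for pairs with Mbp, 12 for the rest), from log2 intensities with the dye mean removed; colour and number give r. The block of Mag, Mog, Cnp and Mobp is positive throughout, between 0.35 and 0.82. Mbp, read by its bright probe, is negative with Pmp22, Sox10 and Olig1. Its second probe, over all 12 animals, had r = 0.80, 0.15 and 0.25 with them. Without control 1 and early life 4 these were -0.22, -0.76 and -0.14.

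Differences between the 2 animals of an array need no scaling between arrays. Early life 4 exceeded early life 3 in all 7 genes that both had: by 2.09 on the log2 scale for Pmp22 (4.26-fold), 1.66 for Mag (3.17-fold), 1.05 for Cnp, 1.03 for Olig1, 0.37 for Mog, 0.35 for Sox10 and 0.29 for Mobp. On the array of control 1 and 2 control 1 was higher by 2.98-fold in Sox10, 2.30-fold in Pmp22 and 1.95-fold in Cnp, while in control 2 Mbp was higher by 0.67 on the log2 scale and Mog and Mobp by 0.09 each. Peripubertal 1 exceeded peripubertal 2 in Pmp22 by 1.84-fold. Cnp was 1.74-fold higher in early life 1 than in early life 2, and the other 7 genes differed there by 1.21-fold or less. All 21 correlations of these differences over the 6 arrays were positive with a median r of 0.65, and 0 passed adjustment by the exact permutation test (3 at an unadjusted p under 0.05). Mog with Mobp had r = 0.98 (exact permutation p = 0.00556, adjusted p = 0.117) and Pmp22 with Olig1 r = 0.97 (exact permutation p = 0.0153, adjusted p = 0.161). Without the array of early life 3 and 4 these were 0.96 and 0.72, and Mag with Pmp22 fell from 0.93 to 0.36. Other pairs turned negative there, among them Mag with Cnp (-0.30), Mag with Olig1 (-0.28) and Mog with Cnp (-0.50). That all 21 were positive thus depended on this array. Dim spots within 4 rows and 2 columns of the spots of Mag, Cnp and Olig1 (14, 5 and 11 spots) deviated in early life 4 by -0.12, -0.08 and 0.02 from their mean over animals. Pmp22 had only 2 such spots, at -0.31 in early life 4 and 1 in peripubertal 3. Those of Mobp (11 spots) stood at -0.16 in early life 4 and 0.16 in early life 3. Those of Cnp stood at 0.27 in peripubertal 3. Around Mog 12 dim spots lay 0.53 higher in peripubertal 3, an animal high in Mog for its group.

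**Figure D4:**
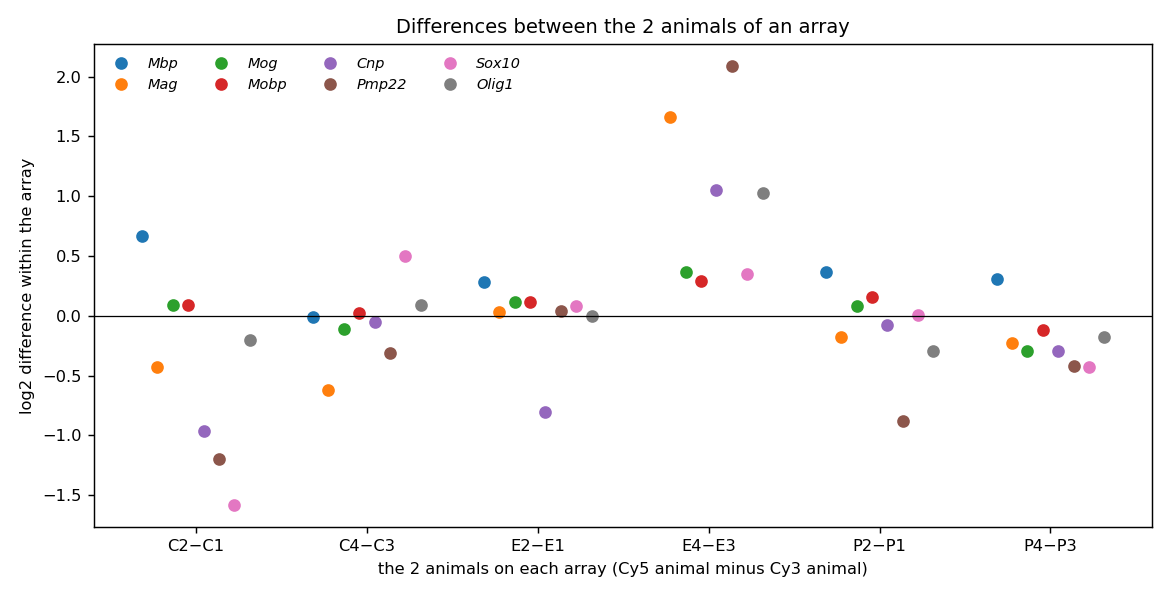
Log2 difference of the Cy5 animal from the Cy3 animal (y axis) on each of the 6 arrays (x axis) for the 8 genes, 1 point per gene. All genes are above 0 on the array of early life 4 and 3, up to 2.09 for Pmp22, and Mbp has no point there.

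The genes whose levels over animals were most like those of Pmp22 included peripheral myelin genes. Pmp22 was taken as a reference after its values were seen. Among 14379 genes the 10 with the highest r over 12 animals were Fam178b (0.96), Ncmap (0.95), Drp2 (0.94), Prx (0.93), Ctsk (0.90), Emid1 (0.89), Lhfp (0.89), Pllp (0.88), Cmtm5 (0.87) and S100b (0.87). Prx (periaxin) and Drp2 (a dystrophin-related protein) form a membrane complex in Schwann cells, Ncmap is a protein of uncompacted peripheral myelin, and S100b is a calcium-binding protein of Schwann cells and other glia. Prx, Ncmap, Drp2 and S100b belong to a 20-gene list of Schwann cell and peripheral myelin genes, of which 16 were measured, whereas Pllp is on the list of central myelin genes. The median r of the 16 Schwann genes with Pmp22 was 0.44, and that of all genes -0.01. Some of them stood low in an animal that was high in Pmp22: Gjb1 was lowest in control 1 at 13.19, and Sox2 in early life 4 at 8.79.

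Prx measured 10.43 in control 1, 10.91 in early life 4 and 9.59 in peripubertal 1, and 7.42 to 7.87 in the other 9 animals. The 3 animals thus stood apart, 1 in each diet group and in both dyes. Ncmap measured 10.37, 10.84 and 9.85 in them and 7.86 to 8.91 in the rest, and its other probe 9.69, 10.51 and 9.39 against 7.68 to 8.44. Drp2 was dim, with its probe well above background in 8 channels, and measured 7.78, 7.90 and 7.59 in them and 7.23 to 7.48 in the rest. Its other probe measured 7.48, 7.58 and 7.28 against 7.22 to 7.51, so it did not set the 3 animals apart. Within arrays Prx was 10.8-fold higher in early life 4 than in early life 3, 6.32-fold higher in control 1 than in control 2 and 3.77-fold higher in peripubertal 1 than in peripubertal 2. Since the animals form separate clusters, r over all 12 describes the gap between them: without the 3 animals r with Pmp22 was -0.25 for Prx, 0.17 for Ncmap, 0.26 for Drp2 and 0.02 for S100b, but 0.70 for Fam178b and 0.86 for Ctsk. The mean log2 level of the measured Schwann genes ran from 8.28 to 8.78 in control, 8.30 to 9.16 in early life and 8.26 to 8.71 in peripubertal animals. Pmp2, Foxd3, L1cam and Gldn of this list were not bright enough to keep. The part of peripheral nerve in the Pmp22 levels was not tested.

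**Figure D5:**
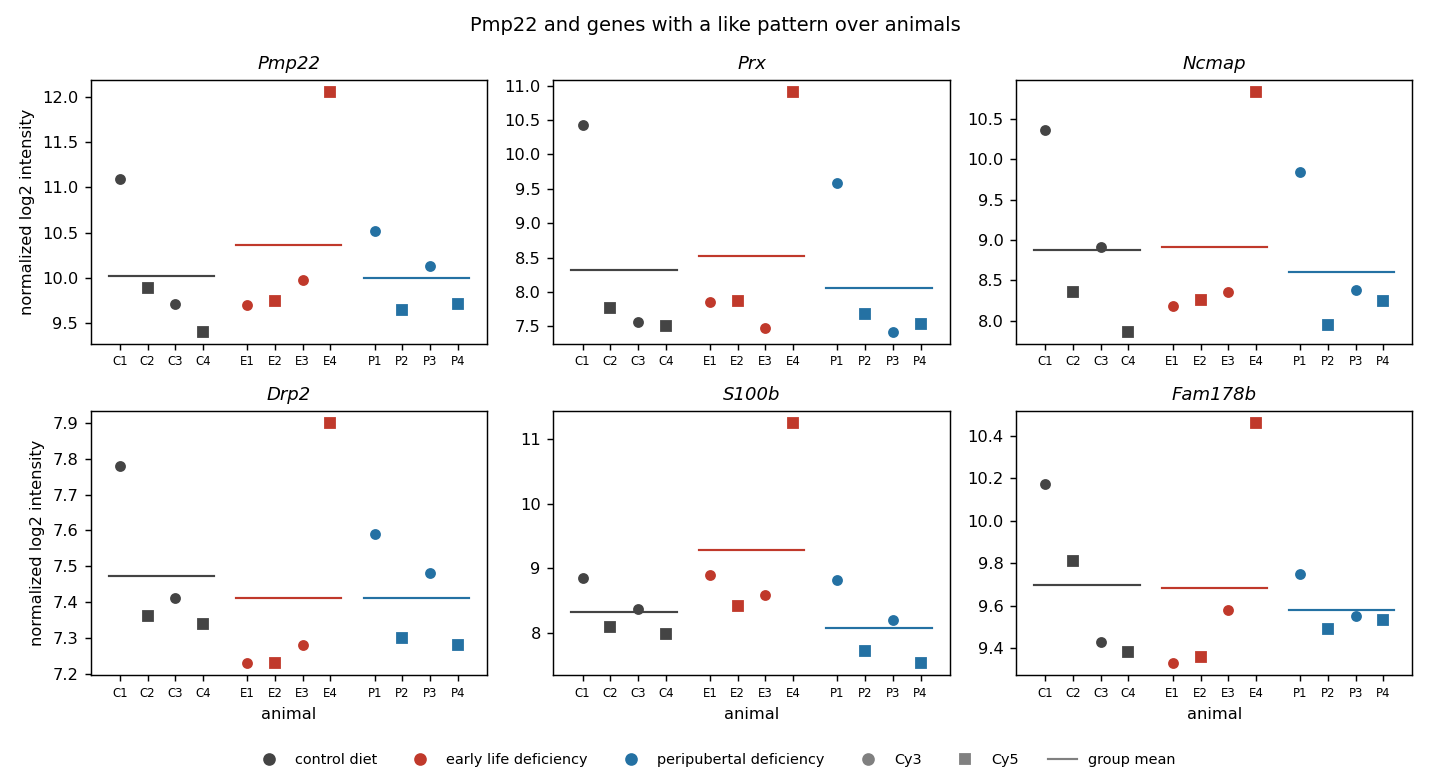
Normalized log2 intensity (y axis, a separate scale for each gene) of Pmp22 and 5 of the 10 genes most like it over animals in each of the 12 animals (x axis), with dye by symbol and group means by lines. Control 1, early life 4 and peripubertal 1 are the highest animals for Prx and Ncmap, with Prx at 10.43, 10.91 and 9.59 in them.

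The 10 genes most like Mbp over its 10 animals were Eci3 (r = 0.97), Hap1 (0.96), Maf1 (0.95), Ctdsp2 (0.94), Farp1 (0.94), Ypel3 (0.93), N4bp2l1 (0.93), Ica1l (0.92), Man1a2 (0.92) and Rhou (0.92). None of them was on a list of myelin or glial genes. This likeness is that of the bright Mbp probe, and the second Mbp probe, whose listed transcripts differ, was not ranked. Among 15090 genes Mag ranked 3678th by likeness to Mbp, Mog 4215th, Cnp 7573rd, Mobp 7778th, Olig1 10505th, Pmp22 11373rd and Sox10 13098th. With Mag as the reference, Cnp ranked 200th and Mog 421st of 14379, and the most alike were Ankk1 (0.94), Nppa (0.94) and Fbxo34 (0.94), also on none of the lists. Without early life 4 Mog ranked 189th and Cnp 1903rd.

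Other genes of myelin were read from 3 lists that leave out the 8 members. Of 32 genes of central myelin and oligodendrocytes 26 were measured. Set against control, early life animals had 20 of them higher and 6 lower, with 0 past the threshold and a median log2 difference of 0.27 (all genes 0.04; 9 at an unadjusted p under 0.05). In early life against peripubertal 22 were higher and 4 lower with a median of 0.23 (all genes 0.03; 8 at an unadjusted p under 0.05), and 1 rose: Ppp1r14a, a phosphatase inhibitor, measured 11.14, 10.75, 10.82 and 10.99 in early life and 10.01, 9.64, 9.79 and 9.84 in peripubertal animals, without overlap (2.15-fold, limma adjusted p = 0.0455). Of all genes 0.164% were called higher in that comparison, and the Ppp1r14a call was lost under 24 of 33 alternatives, while its log2 difference ran from 0.99 to 1.31 under those that keep the scanner files' group names. In peripubertal against control 12 were higher and 14 lower, with a median of -0.06 and 0 at an unadjusted p under 0.05. Of all genes 55.1%, 53.4% and 55.1% were higher in these comparisons, in the order given. At an unadjusted p under 0.05 all genes gave 17.9%, 20.5% and 5.31%. The other list genes of smallest p did not pass. Qdpr had a log2 difference of 0.60 in early life against control (SE 0.15, limma adjusted p = 0.125) and Aspa one of 0.49 in early life against peripubertal (SE 0.13, adjusted p = 0.0973). Opalin, Nkx6-2, Myrf, Olig2, Gal3st1 and Hapln2, several of them defining genes of oligodendrocytes, were not bright enough to keep.

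Of the 16 measured Schwann genes, early life animals had 12 above and 4 below control, peripubertal animals 8 and 8, and early life against peripubertal gave 10 and 6. None passed limma's adjusted threshold (1 at an unadjusted p under 0.05 in each), and the medians were 0.11, -0.02 and 0.06. The smallest p-values were those of Cadm4 (log2 difference 0.46 in early life against peripubertal, adjusted p = 0.151), Gjb1 (0.59 in early life against control, adjusted p = 0.276), Gfra3 (0.35, adjusted p = 0.294) and Egr2, a transcription factor of myelinating Schwann cells (1.04 in early life against peripubertal, adjusted p = 0.309). Egr2 was highest in early life 1 at 9.44 and early life 4 at 8.84 and between 6.83 and 7.97 in the others, so it did not single out the 3 animals above. Of 11 oligodendrocyte precursor genes 8 were measured, 6 above and 2 below control in early life animals and 5 and 3 in each of the other comparisons, and 0 passed limma's threshold (2, 0 and 1 at an unadjusted p under 0.05). The smallest p-values were those of Ptprz1 (log2 difference 0.77, adjusted p = 0.218) and Pdgfra (0.63, adjusted p = 0.22) in early life against control and Vcan (0.31, adjusted p = 0.181) and Nkx2-2 (0.35, adjusted p = 0.271) in early life against peripubertal. As background to both lists, 55.1%, 55.1% and 53.4% of all genes were higher in the comparisons in the order above. Shares of all genes at an unadjusted p under 0.05 were 17.9%, 5.31% and 20.5%.

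Some lists of neighbouring cell markers were high in the early life animals that were high in Mag and Mog. Correlations of the lists with members were not computed. Of all genes with a value in every animal, early life 1, 2 and 4 were the highest animal for 18.8%, 13.5% and 9.81%. For each list the level of an animal is the mean dye-centred log2 value of its genes measured in all animals. The central myelin list (level from 21 genes) stood at 0.42 in early life 4, 0.22 in early life 2 and 0.19 in early life 1, and between -0.25 and 0.04 in the other 9 animals, which are the same 3 early life animals that were high in Mag and Mog. The neuron and axon list (level from 11 genes, 17 of 18 measured) stood at 0.55, 0.25 and 0.28 in early life 1, 2 and 4, and between -0.26 and 0.05 in the other 9. Its genes did not move alike: early life animals had 11 of the 17 above and 6 below control, where 55.1% of all genes were above. The axonal Stmn2 measured 10.09, 9.80 and 9.16 in these 3 animals and 8.51 to 8.74 in the rest. Gad2, which makes the transmitter GABA, was lowest in early life 1 and 2 at 9.87 and 9.98 against 10.30 to 11.50 in the 8 animals of the other groups, and it had no value in early life 3 and 4. The astrocyte and pituicyte list (level from 13 genes, 15 of 16 measured) stood at 0.41, 0.27 and 0.25 in them, 0.29 in peripubertal 3 and between -0.31 and -0.07 elsewhere. The fibroblast and meninges list (level from 6 genes, 11 of 12 measured) stood at 0.32, 0.19 and 0.45 in them, 0.16 in control 1 and between -0.29 and 0.10 elsewhere. Mean log2 levels of the neuron list ran from 9.76 to 9.92 in control, 9.86 to 10.42 in early life and 9.61 to 9.73 in peripubertal animals. Early life 3, which shared an array with early life 4, stood between -0.18 and -0.01 on these 4 lists and at -0.26 on the Schwann list. The melanotroph list (level from 4 genes, 6 of 6 measured) ran from -0.53 in control 1 to 0.26 in peripubertal 3. The anterior hormone list (level from 5 genes) stood at 0.20, -0.09 and -0.01 in early life 1, 2 and 4. Elsewhere it ran from -0.45 in peripubertal 1 to 0.37 in peripubertal 3. Of the lists of neighbouring cells, melanotrophs and anterior hormone genes none had a gene past limma's adjusted threshold in any comparison (from 0 to 5 genes of a list at an unadjusted p under 0.05). Under that unadjusted p lay 17.9% of all genes in early life against control and 5.31% in peripubertal against control. In early life against peripubertal it was 20.5%. The part of neural tissue in the levels of Mag and Mog was not tested.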

How the data were processed

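Pituitary RNA of 12 animals was read on 6 arrays. The deposited scanner files hold, per the file headers, unscaled spot and background intensity (Agilent Feature Extraction 11.0.1.1). The deposited value table holds log2 values. In the 8 columns of deficient animals these equal log2 scanned net intensity within 1e-06, up to a constant per column. In the control columns at most 0.0399% of values matched any scanned channel, and those columns were not used. The table served only as an alternative. Of 44397 features, 1377 controls and outlier-marked spots were left out. Intensities were corrected by normexp (offset 50), loess within arrays and Aquantile between arrays with limma 3.58.1 in R 4.3.3. Probes well above background in at least 4 of 12 channels were kept (24589), and the brightest stands for its gene. Genes were named by RefSeq accession (27324 probes), symbol (3518) or synonym (551), and 8036 probes kept the file's name.

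Groups were compared with limma, with dye as a fixed term and array as a random block (correlation 0.306), adjusted by Benjamini-Hochberg over all genes. Correlations used Python 3.11.15. Steps were tested on simulated data. Genes named are the members, the 4 of smallest p of each myelin list, and the 10 most like Mbp, apart from genes not reported here. Members and lists were chosen with earlier results of these data known. Alternatives were other background, scaling, filter, probe and block settings and leaving out animals or arrays. Same-numbered animals of different groups correlated from -0.179 to 0.13 in their deviations from group means, so numbers were not taken to pair animals. The number of arrays limits the precision.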

Additional observations from a re-analysis of the deposited data

Results flagged for a closer look

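Pmp22 in early life animal 4 measured 12.06 on the normalized log2 scale, far from the other 3 early life animals at 9.70, 9.74 and 9.97. It was the 1 value set apart by Dixon's test among 23 groups of 4 animals, where about 1 in 20 groups is set apart by chance. The other Pmp22 probe was also highest in this animal, at 10.39.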

How the results depend on the processing

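Of 768 member differences under alternatives, 713 kept their direction, 55 turned and 4 passed the threshold. The count of called members went from 0 to 1 for early life against control with quantile scaling and without the array of early life 3 and 4, and to 1 for early life against peripubertal without that array; leaving out single animals gave 0 to 1 there, and 0 to 0 in both comparisons with control. No alternative called a member for peripubertal against control. Correlated pairs past the threshold, 2 as reported, were 1 with processed signals, 4 with quantile scaling, 4 with median centring, 0 with group means removed, 0 with within-array differences only and 0 on the slide of both deficient groups. Leaving out single animals gave 0 to 2 pairs, leaving out arrays 0 or 1, and leaving out control 1, early life 4 and peripubertal 1 together 1. With the replicate number as a block, 0 members and 12, 0 and 6 genes passed, against 18, 4 and 79 as reported. Over alternatives the counts of all genes ran from 0 to 3509, 0 to 44 and 1 to 2496. Of the calls for early life against control 61.1% were higher as reported, 40.5% with processed signals and 97.3% with quantile scaling, and for early life against peripubertal 38.0%, 41.7% and 88.0%. The causes were not tested. In early life against control the sign turned for Mbp (-0.61) with the mean of its probes, for Mobp (-0.06) and Olig1 (-0.08) without control 1, early life 4 and peripubertal 1, for Mobp (-0.06) and Olig1 (-0.05) without the array of control 1 and 2, for Pmp22 (-0.12) and Sox10 (-0.02) without the array of control 3 and 4 and for Pmp22 (-0.30) without the array of early life 3 and 4. Leaving out single animals there gave -0.17 to 0.48 for Sox10, -0.01 to 0.08 for Mobp, -0.31 to 0.71 for Pmp22 and -0.02 to 0.41 for Olig1. In peripubertal against control the sign turned for Pmp22 (0.0041) with processed signals, for Cnp (0.10) and Pmp22 (0.15) with quantile scaling, for Mog (0.02), Cnp (0.18) and Pmp22 (0.25) with median centring, for Mbp (-0.18) with the mean of its probes and for Mbp (-0.43) when read by probe A_52_P329451. In peripubertal against control it also turned for Mbp (-0.00076), Cnp (0.15) and Pmp22 (0.12) without control 1, early life 4 and peripubertal 1, for Cnp (0.06) and Pmp22 (0.44) without the array of control 1 and 2, for Mobp (0.05) without the array of control 3 and 4, for Mbp (-0.0019) without the array of peripubertal 1 and 2 and for Pmp22 (0.06) and Olig1 (-0.02) without the array of peripubertal 3 and 4. Leaving out single animals there gave -0.02 to 0.16 for Mbp, -0.20 to 0.16 for Cnp, -0.21 to 0.34 for Pmp22 and -0.01 to 0.63 for Sox10. In early life against peripubertal the sign turned for Olig1 (0.02) with quantile scaling, for Mbp (-0.43) with the mean of its probes, for Mbp (-0.29), Mag (-0.95), Mog (-0.44), Mobp (-0.39), Cnp (-0.49), Pmp22 (-0.39), Sox10 (0.10), Olig1 (0.0047) and Ppp1r14a (-1.16) under the value table's own column names, for Mobp (-0.0031) and Pmp22 (-0.08) without control 1, early life 4 and peripubertal 1 and for Pmp22 (-0.28) without the array of early life 3 and 4. In early life against peripubertal it also turned for Olig1 (0.24) without the array of peripubertal 3 and 4. Leaving out single animals there gave -0.34 to 0.09 for Olig1 and -0.29 to 0.69 for Pmp22.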
